A study of Homo sapiens with 16 samples.

Results

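Tubulins are the subunits of microtubules. This account follows 9 tubulin mRNAs among the 60564 genes of the deposited table: the α-tubulin genes TUBA1A, TUBA1B, TUBA1C and TUBA4A, the β-tubulin genes TUBB, TUBB2A, TUBB4B and TUBB6, and the γ-tubulin gene TUBG1. The members were taken from the table by gene symbol, with no measured value in the rule. The choice of tubulins was nevertheless made with earlier results of these data known. The measurements came from SLAM-seq, in which 4-thiouridine (4sU) taken up into new RNA is read as T-to-C conversions. THP-1 cells, which derive from a human monocytic leukaemia, were either labelled wild type (control) or carried a knockdown of ALKBH5, an enzyme that removes the m6A methyl mark from RNA. All cells took up 100 µM 4sU over a 1 h pulse. A chase in 10 mM uridine followed, and polyadenylated RNA was taken after 0, 1.5, 4.5 or 7.5 h of it, which gave 8 groups of 2 libraries. How the knockdown was made, and whether it is 1 clone or a pool, is not given in the sources used here.

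α- and β-tubulin form the dimer that builds the microtubule wall, and γ-tubulin sits in the ring complex from which microtubules grow. Cells adjust their tubulin content partly through mRNA decay. When free dimer is in excess, the factor TTC5 recognises the first residues of a nascent tubulin chain, methionine, arginine and glutamate followed by isoleucine or cysteine, and the CCR4-NOT deadenylase is recruited to the mRNA being translated. γ-tubulin is not known to be under this control.

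The sequences below show the start of each coding region, the part that encodes the recognised residues. They were read from the principal transcripts of GENCODE 29 (GRCh38), 5′ to 3′, with the first 4 codons in capitals.
TUBA1A: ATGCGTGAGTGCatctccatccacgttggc
TUBA1B: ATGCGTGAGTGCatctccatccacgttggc
TUBA1C: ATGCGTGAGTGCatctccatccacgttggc
TUBA4A: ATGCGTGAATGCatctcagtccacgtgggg
TUBB: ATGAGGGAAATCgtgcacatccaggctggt
TUBB2A: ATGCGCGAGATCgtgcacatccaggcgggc
TUBB4B: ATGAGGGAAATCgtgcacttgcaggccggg
TUBB6: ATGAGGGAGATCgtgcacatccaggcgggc
TUBG1: ATGCCGAGGGAAatcatcaccctacagttg
Starts were searched on the coding strand, at the start codon only, for any codon of arginine, then of glutamate, then of isoleucine or cysteine. The 8 α- and β-tubulins matched and TUBG1 did not. Of 19670 protein-coding genes 19 matched (0.0966%), and all 19 carried a tubulin symbol.

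Near-identical copies limit how far the isotypes can be told apart. Of the 50-base stretches of the TUBA1B transcript, 62.7% also occurred in transcripts of other genes; 38.6% of all its stretches occurred in TUBA1A and 37.2% in TUBA1C. The shares were 65.5% for TUBB2A, most of it with TUBB2B, 41.1% for TUBA1A, 29.9% for TUBG1, most of it with TUBG2, and 25.1% for TUBA1C. They were 18.2% for TUBB, 9.89% for TUBB4B, 5.25% for TUBA4A and 0.993% for TUBB6. The sharing lay almost wholly within coding sequence, and stretches touching the untranslated regions were shared in 3.45% of cases at most, for TUBB. Values of TUBA1A, TUBA1B, TUBA1C, TUBB2A and TUBG1 are therefore uncertain as values of single isotypes.

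Each value is taken to be a conversion rate, the percentage of sequenced T bases that were read as C. It is a share and not an abundance. The T bases behind it are not in the table, so the depth of each value is unknown, and no library without 4sU was used here. Library medians over the 16241 genes tested ran from 0.250% to 0.556% in control and from 0.532% to 1.19% in knockdown. Between 2.39% and 12.9% of these genes were listed at 0 in a library. Knockdown columns were identified by elimination, since their prefix is not a label of any sample. ALKBH5 itself had rates from 0.0982% to 0.812% in control and from 0.108% to 3.31% in knockdown, which do not measure its abundance. A single abundance column, in CPM (reads scaled to the library total) from a library that is not named, gave 11 of 12 monocytic markers at 1 CPM or more, with LYZ at 1276 CPM. The myeloid marker MPO was at 0.185 CPM. Summed CPM were 5.19 for 7 erythroid, 6.01 for 6 T and B cell and 4.42 for 5 epithelial markers, with HBB, CD3D and KRT19 at 0. Whether the 2 libraries of a group were separate cultures is not in the labels, and the p-values then measure only the spread between these libraries, which may be technical.

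By CPM the members were TUBB6 at 154, TUBA1B at 95.3, TUBB at 85.4, TUBB4B at 77.2, TUBA1C at 43.0, TUBG1 at 9.23, TUBA4A at 3.81, TUBA1A at 1.19 and TUBB2A at 0.185. TUBB2A fell under the minimum of 1 CPM, so 8 of the 9 members were tested.

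**Figure D1:**
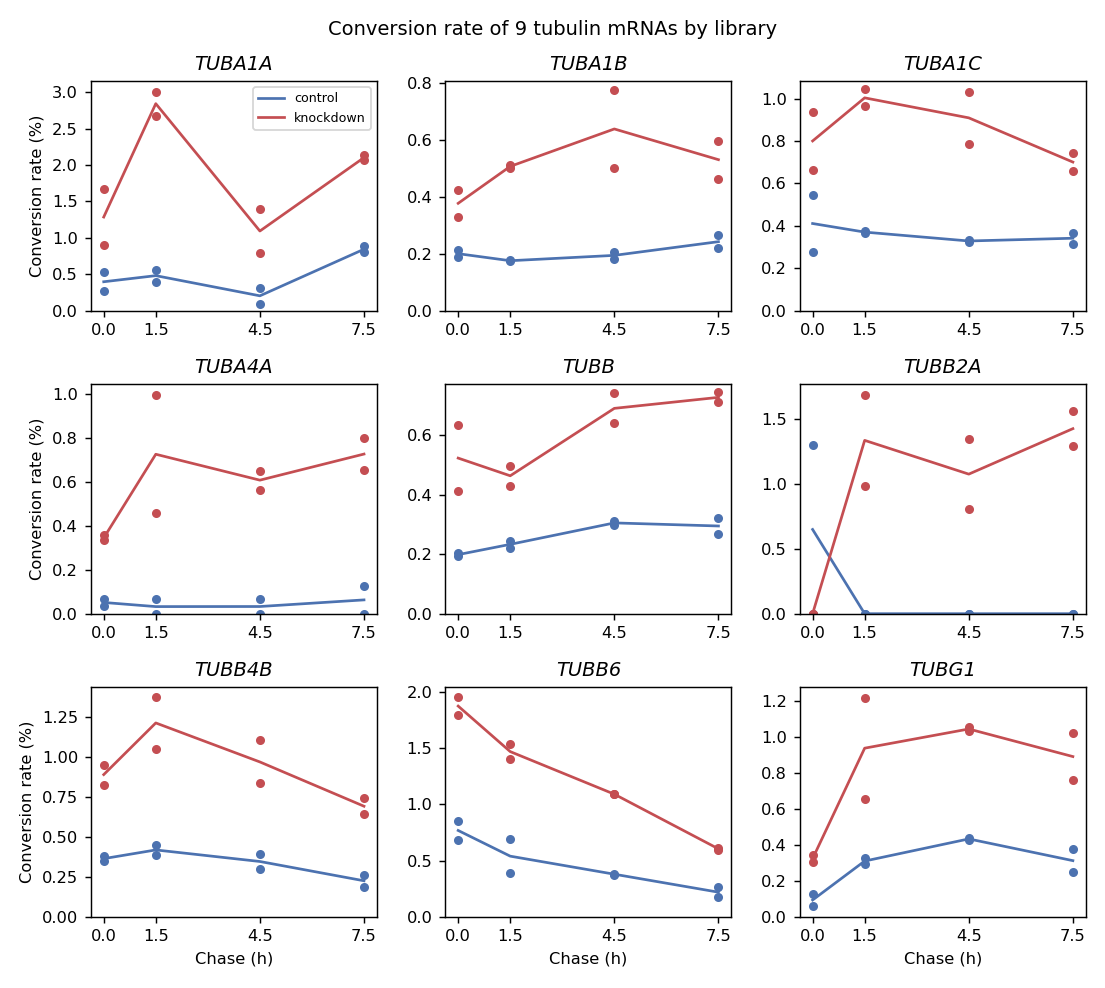
Conversion rate in percent (vertical axes, one scale per gene, from 0) against hours of chase for the 9 tubulin mRNAs. Points are libraries, lines join the means of 2 libraries, blue is control and red is knockdown. TUBB6 runs down from 0.853% and 0.681% to 0.175% and 0.262% in control, while TUBG1 starts at 0.0573% and 0.129% and reaches 0.439% and 0.426% at 4.5 h.

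The first question was how tubulin rates moved during the chase. TUBB6, a broadly expressed β-tubulin isotype, fell in both genotypes at about the same pace, and neither call held once libraries were centred on their medians. TUBB4B, another β-tubulin, fell in control, though its slope turned positive on centring. TUBB, the main β-tubulin of many dividing cells, rose in knockdown. The α-tubulins and TUBG1 passed no threshold for a slope. With limma, 0 of 8 tested members rose and 2 fell in control, against 3.45% and 34.4% of all genes tested. In knockdown 1 rose and 1 fell, against 4.06% and 37.9%. The median slope of the 8 was 0.016 log2 per hour in control and 0.038 in knockdown, while that of all genes tested was −0.11 and −0.13.

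TUBB6 (ENSG00000176014) lies on chromosome 18 from 12307669 to 12344320 on the plus strand and overlaps AFG3L2 on the other strand. Its control rates were 0.853% and 0.681% at the start, then 0.389% and 0.688% after 1.5 h, 0.384% and 0.372% after 4.5 h, and 0.175% and 0.262% after 7.5 h. In knockdown they were 1.95% and 1.79%, 1.40% and 1.53%, 1.09% and 1.09%, and 0.615% and 0.592% at the same times. Within each genotype both 7.5 h libraries lay below all others. The slope was −0.20 log2 per hour in control (SE 0.0266, limma adjusted p = 2.65e-05) and −0.20 in knockdown (SE 0.0266, adjusted p = 2.41e-05). At 7.5 h the mean rate stood at 28.5% of its 0 h value in control and 32.2% in knockdown, where the median gene stood at 53.8% and 50.6%. The call held without any single library, with slopes from −0.23 to −0.18 in control and from −0.20 to −0.19 in knockdown. It did not hold on centring (−0.068, adjusted p = 0.0891, and −0.049, adjusted p = 0.218).

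TUBB (ENSG00000196230) lies on chromosome 6 from 30720201 to 30725426 on the plus strand and overlaps the noncoding gene AL662797.1 on the other. Its control rates were 0.204% and 0.193% at the start, then 0.244% and 0.222% after 1.5 h, 0.312% and 0.299% after 4.5 h, and 0.323% and 0.267% after 7.5 h. In knockdown they were 0.633% and 0.413%, 0.430% and 0.497%, 0.741% and 0.639%, and 0.744% and 0.710%. The late libraries were thus higher than the early ones in control, and in knockdown all 4 late libraries exceeded all 4 early ones. The slope was 0.079 log2 per hour in knockdown (SE 0.025, limma adjusted p = 0.0183) and 0.065 in control (SE 0.025, adjusted p = 0.0507), which missed the threshold. The knockdown call ended without knockdown 0 h replicate 2 (0.065, adjusted p = 0.0802) or knockdown 7.5 h replicate 1 (0.080, adjusted p = 0.0558).

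The pair TUBB6 and TUBB changed places within the libraries themselves. The ratio of the TUBB6 rate to the TUBB rate, which no scaling of a library can alter, was 4.18 and 3.53 in the control libraries before the chase, against 0.542 and 0.983 after 7.5 h. The knockdown libraries gave 3.08 and 4.35, against 0.827 and 0.834. In every 0 h library TUBB6 had the higher rate and in every 7.5 h library TUBB had it. This pair was chosen after its values were seen and was not tested.

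TUBB4B (ENSG00000188229), on chromosome 9 from 137241213 to 137243707 on the plus strand, overlaps FAM166A on the other. Control rates were 0.349% and 0.379% at the start, then 0.390% and 0.447% after 1.5 h, 0.301% and 0.391% after 4.5 h, and 0.187% and 0.263% after 7.5 h. Knockdown rates were 0.952% and 0.828%, 1.05% and 1.38%, 0.835% and 1.10%, and 0.742% and 0.642%. Both genotypes had their highest group mean at 1.5 h and their lowest at 7.5 h. The slope was −0.087 log2 per hour in control (SE 0.0322, limma adjusted p = 0.0426) and −0.062 in knockdown (SE 0.0322, adjusted p = 0.133), and its sign turned when libraries were centred (0.048 and 0.088). The control call ended without control 0 h replicate 2, either control library at 1.5 h, control 4.5 h replicate 1, either control library at 7.5 h, or knockdown 1.5 h, 4.5 h or 7.5 h replicate 1, with slopes from −0.096 to −0.055 and adjusted p up to 0.269. It also ended with 0.2 in place of 0.05 percentage points added before taking logs (−0.060, adjusted p = 0.0783), with no CPM minimum (adjusted p = 0.0926) and with no variance trend (adjusted p = 0.0695). Between 1.5 and 7.5 h it fell by 0.78 log2 in control (SE 0.213, adjusted p = 0.0223) and by 0.76 in knockdown (SE 0.213, adjusted p = 0.0203). Centred, these changes were 0.021 (adjusted p = 0.960) and 0.21 (adjusted p = 0.588).

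TUBA1B (ENSG00000123416), the α-tubulin with the highest CPM here, lies on chromosome 12 from 49127782 to 49131397 on the minus strand and overlaps AC011603.2 on the other. Control rates were 0.212% and 0.188% at the start, then 0.178% and 0.173% after 1.5 h, 0.181% and 0.207% after 4.5 h, and 0.219% and 0.266% after 7.5 h. Knockdown rates were 0.329% and 0.425%, 0.511% and 0.503%, 0.500% and 0.777%, and 0.463% and 0.598%. The control values stayed within 0.173% to 0.266% over the whole chase. The slope was 0.035 log2 per hour in control (SE 0.029, limma adjusted p = 0.378) and 0.055 in knockdown (SE 0.029, adjusted p = 0.138).

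TUBA1C (ENSG00000167553) lies on chromosome 12 from 49188736 to 49274603 on the plus strand and overlaps TUBA1A on the minus strand. Whether the authors' counting used strand is not given in the sources used here, so reads of the shared stretch cannot be told apart, here and for the other overlaps named. TUBA1C control rates were 0.547% and 0.275% at 0 h and lay between 0.315% and 0.373% afterwards. Knockdown rates were 0.938% and 0.662% at the start, then 0.962% and 1.04% after 1.5 h, 0.785% and 1.03% after 4.5 h, and 0.743% and 0.657% after 7.5 h. The 2 control libraries at 0 h lay further apart than any at later times. Slopes were −0.025 log2 per hour in control and −0.033 in knockdown (SE 0.0335, limma adjusted p = 0.600 and 0.467).

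TUBA1A (ENSG00000167552), an α-tubulin best known from neurons, lies on chromosome 12 from 49184796 to 49189324. Its control rates were 0.526% and 0.267% at the start, then 0.396% and 0.565% after 1.5 h, 0.0972% and 0.309% after 4.5 h, and 0.887% and 0.801% after 7.5 h. Knockdown rates were 1.67% and 0.900%, 3.01% and 2.68%, 1.39% and 0.796%, and 2.07% and 2.14%. Both genotypes dipped in mean at 4.5 h, at a CPM barely above the minimum. The slopes were 0.085 and 0.020 log2 per hour (SE 0.112, limma adjusted p = 0.595 and 0.909).

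TUBG1 (ENSG00000131462), the γ-tubulin of the nucleating ring complex, lies on chromosome 17 from 42609676 to 42615234 on the plus strand and overlaps RETREG3 on the other. Control rates were 0.0573% and 0.129% at the start, then 0.290% and 0.328% after 1.5 h, 0.439% and 0.426% after 4.5 h, and 0.375% and 0.248% after 7.5 h. Knockdown rates were 0.302% and 0.343%, 1.22% and 0.655%, 1.06% and 1.03%, and 0.761% and 1.02%. In each genotype both 0 h libraries lay below all 6 later ones. At 1.5 h the mean was 332% of the 0 h mean in control and 290.0% in knockdown, where the median gene stood at 87.5% and 92.0%. The change from 0 to 1.5 h was 1.37 log2 in control (SE 0.383, limma adjusted p = 0.173) and 1.34 in knockdown (SE 0.383, adjusted p = 0.237), so neither passed. From 1.5 to 7.5 h it was −0.011 and −0.023 (SE 0.383). The slopes, 0.15 in control and 0.14 in knockdown (SE 0.0733, adjusted p = 0.115 and 0.137), were −0.0019 and −0.0038 without the 0 h libraries.

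**Figure D2:**
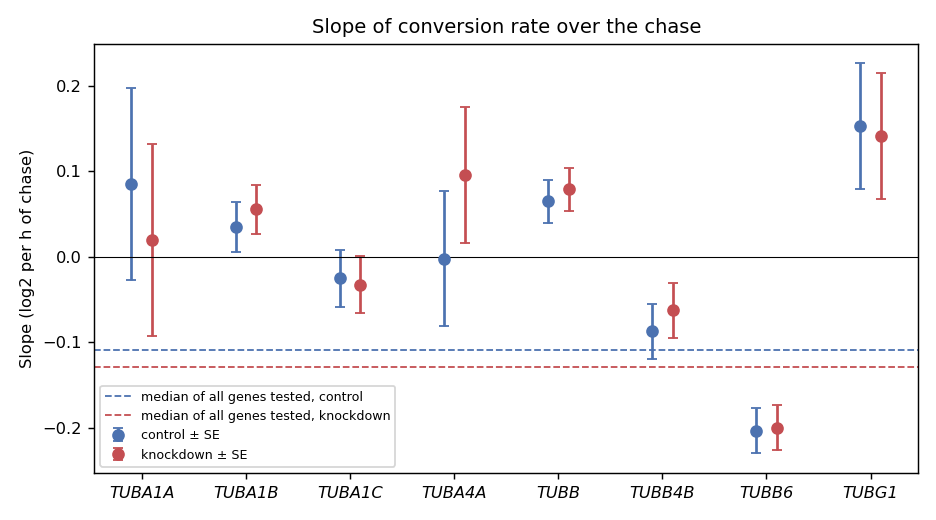
Slope of log2 conversion rate per hour of chase (vertical axis) for the 8 tested tubulins, control in blue and knockdown in red, with bars of 1 SE. Dashed lines are the medians of all genes tested, −0.11 and −0.13; TUBB6 at −0.20 in both genotypes is the lowest member and TUBG1 at 0.15 and 0.14 the highest.

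In the short interval from 0 to 1.5 h, 0 of 8 members passed in either genotype with limma, although 2 had an unadjusted p under 0.05 in control and 1 in knockdown. Of all genes tested 0.0739% passed in control and 0.0554% in knockdown. From 1.5 to 7.5 h TUBB4B and TUBB6 fell in both genotypes, TUBB6 by 1.10 log2 in control and by 1.21 in knockdown (SE 0.224, adjusted p = 0.0052 and 0.00232). TUBB rose by 0.60 in knockdown (SE 0.188, adjusted p = 0.0336). These were 2 calls lower and 0 higher in control, against 21.1% and 1.24% of all genes tested, and 2 lower and 1 higher in knockdown, against 26.9% and 1.16%. In control the count dropped to 1 without either control library at 1.5 h or without control 7.5 h replicate 1. In knockdown the count dropped to 1 without knockdown 1.5 h replicate 2 or 7.5 h replicate 2.

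With each library centred on its median log2 rate, the falls over that interval were no longer called, at −0.30 (adjusted p = 0.421) and −0.24 (adjusted p = 0.558) for TUBB6. TUBA1B and TUBB were then higher in both genotypes, TUBA1B by 1.17 and 1.02 (SE 0.207, limma adjusted p = 0.00347 and 0.00689) and TUBB by 1.08 and 1.57 (SE 0.189, adjusted p = 0.00325 and 1.84e-04). These were 2 of 8 higher and 0 lower in each genotype, against 9.54% and 3.74% of all genes tested in control and 9.88% and 2.54% in knockdown.

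For the slopes, the same centring took away −0.14 log2 per hour from each control slope and −0.15 from each knockdown slope. Relative to that common fall, TUBB, TUBA1B, TUBA1C and TUBG1 rose in both genotypes and TUBA4A in knockdown. A rate that merely stayed level also rises on this measure. Uncentred slopes, none of which passed, were 0.035 and 0.055 for TUBA1B and −0.025 and −0.033 for TUBA1C. Those of TUBG1 were −0.0019 and −0.0038 without the 0 h libraries. With no library without 4sU, how much of the low rates was read without label was not tested. These were 4 of 8 higher and 0 lower in control, against 17.6% and 9.46% of all genes tested, and 5 higher and 0 lower in knockdown, against 17.7% and 8.62%. Centred slopes of TUBB were 0.20 in control (SE 0.028, limma adjusted p = 6.89e-05) and 0.23 in knockdown (SE 0.028, adjusted p = 1.42e-05). Those of TUBA1B were 0.17 (SE 0.0282, adjusted p = 3.14e-04) and 0.21 (SE 0.0282, adjusted p = 4.47e-05), and those of TUBG1 0.29 and 0.29 (SE 0.0731, adjusted p = 0.00789 and 0.0073). The centred TUBA1C slopes, 0.11 and 0.12 (adjusted p = 0.0196 and 0.0137), lost their calls when centring used genes of at least 50 CPM, at 0.054 and 0.054 (adjusted p = 0.218 and 0.208). The control call also ended without control 0 h replicate 2 (0.079, adjusted p = 0.105) or control 7.5 h replicate 2 (0.10, adjusted p = 0.0739), and the knockdown call without knockdown 0 h replicate 2 (0.090, adjusted p = 0.0791) or with no CPM minimum (0.13, adjusted p = 0.236). TUBA4A in knockdown, 0.25 (adjusted p = 0.0269), lost its call without any of the 4 knockdown libraries at 0 h and 7.5 h, with adjusted p up to 0.0945. It also lost it with 0.01 percentage points added (adjusted p = 0.216), with no CPM minimum (adjusted p = 0.120) and with the centring on genes of at least 50 CPM (adjusted p = 0.0882). TUBB6 was at −0.068 in control (adjusted p = 0.0891) and −0.049 in knockdown (adjusted p = 0.218). It passed when centring used genes of at least 50 CPM, at −0.12 and −0.11 (adjusted p = 0.00459 and 0.0078), or with a minimum of 20 CPM, at −0.088 and −0.070 (adjusted p = 0.016 and 0.0475). In control it was 0.067 with no CPM minimum (adjusted p = 0.453). TUBB4B was at 0.048 (adjusted p = 0.278) and 0.088 (adjusted p = 0.0504).

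Ranks within a library show the same movement without any model. The rate of TUBB stood at a mean percentile of 21.1 among the tested genes at 0 h in control and 58.0 at 7.5 h, and at 23.9 and 70.5 in knockdown. TUBA1B went from 21.2 to 47.9 in control and from 17.7 to 49.3 in knockdown. TUBB6 went the other way, from 67.5 to 42.7 in control and from 78.0 to 58.2 in knockdown. Its path was not steady, at 57.3 and 60.8 in control and 74.9 and 79.2 in knockdown after 1.5 and 4.5 h.

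**Figure D3:**
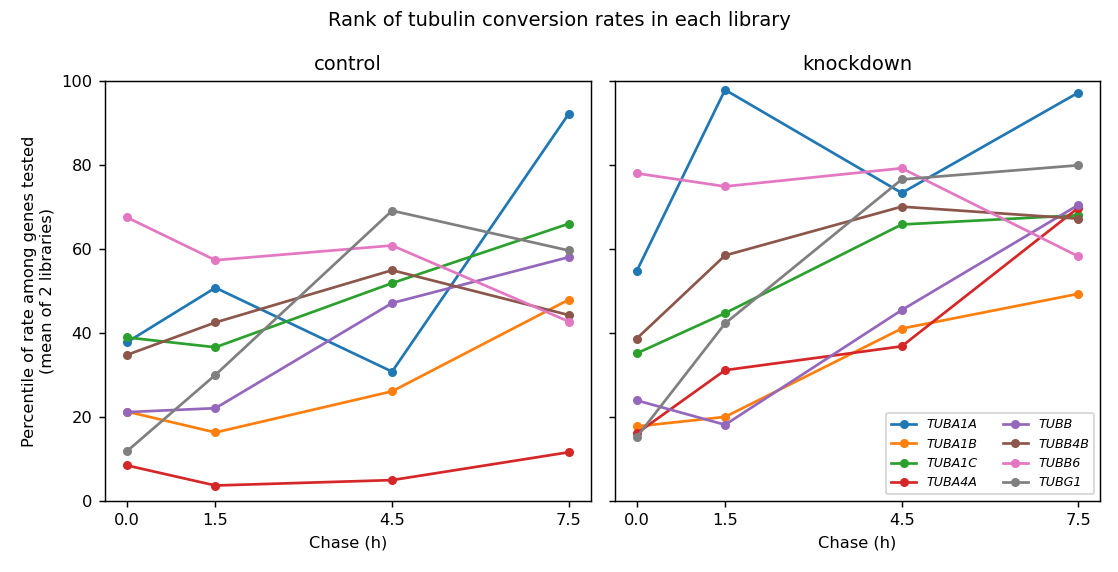
Percentile of each tubulin rate among the 16241 genes tested (vertical axis, mean of 2 libraries) against hours of chase, control left and knockdown right. TUBB goes from 21.1 to 58.0 in control and from 23.9 to 70.5 in knockdown. TUBB6 ends below its start in both, without a steady decline, and TUBA4A stays at 11.6 or less in control but reaches 69.8 in knockdown.

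The second question was how the genotypes differed. All 8 tested tubulins had higher rates in knockdown over the 4 times (limma; 69.6% of all genes tested were higher and 0.172% lower). The median of the 8 was 1.34 log2, beside 1.02 over all genes tested. TUBA1B was 1.13 higher (SE 0.118, adjusted p = 9e-07), TUBA1C 1.13 (SE 0.135), TUBB 1.07 (SE 0.0926), TUBB4B 1.35 (SE 0.1), TUBB6 1.34 (SE 0.103) and TUBG1 1.35 (SE 0.176). TUBA1A was 1.89 higher (SE 0.37, adjusted p = 3.64e-04). All 8 calls held without any single library. The control and knockdown ranges over the whole chase did not overlap for TUBA1B, TUBA1C, TUBA4A, TUBB and TUBB4B, and overlapped for TUBA1A, TUBB6 and TUBG1. How many of all genes tested had ranges without overlap was not counted, so this cannot be read as a trait of tubulins.

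Of the 8, TUBA4A stood furthest from the shift. TUBA4A (ENSG00000127824), an α-tubulin isotype, lies on chromosome 2 from 219249711 to 219278170 on the minus strand and overlaps STK16 and TUBA4B on the other. Control rates were 0.0661% and 0.0359% at 0 h and 0.0645%, 0.0653% and 0.125% in replicate 2 at 1.5, 4.5 and 7.5 h, while replicate 1 was listed at 0 at each of those times. Knockdown rates were 0.333% and 0.355% at the start, then 0.455% and 0.993% after 1.5 h, 0.650% and 0.564% after 4.5 h, and 0.800% and 0.651% after 7.5 h. The lowest knockdown library was above the highest control library. Knockdown exceeded control by 2.85 log2 (SE 0.337, limma adjusted p = 3.31e-06), at percentile 99.7 of all genes tested. After centring it was 1.80 (SE 0.335, adjusted p = 0.00438), the 1 call among the 8 members, where 1.45% of all genes tested were higher and 4.59% lower. Leaving out single libraries gave centred values from 1.61 to 1.94 with adjusted p up to 0.0121.

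The size of that effect depended on the constant added before taking logs, since 3 control libraries were at 0. It was 4.01 with 0.01 percentage points (centred 2.88, adjusted p = 0.0171) and 1.68 with 0.2 (centred 0.84, adjusted p = 0.0125). At 0 h, where no library was at 0, the mean rate in knockdown was 6.74 times that in control, and the median gene 2.09 times. Slopes of TUBA4A were −0.0023 log2 per hour in control and 0.096 in knockdown (SE 0.079, adjusted p = 0.990 and 0.356). Against TUBA1B in the same library, the TUBA4A rate was 0 to 0.472 times as high in control and 0.726 to 1.97 times in knockdown, 2 ranges that did not overlap. This ratio was set up after its values were seen and has no test. Neither the CPM of 3.81 nor the rates carry the number of T bases, so how much of the difference is counting error cannot be said.

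The other centred genotype effects did not pass. They were 0.85 for TUBA1A (adjusted p = 0.208), 0.30 for TUBB4B (adjusted p = 0.0934), 0.29 for TUBB6 (adjusted p = 0.117), 0.30 for TUBG1 (adjusted p = 0.389), 0.082 for TUBA1B and TUBA1C (adjusted p = 0.754 and 0.797) and 0.018 for TUBB (adjusted p = 0.949). The 95% interval ran from −0.16 to 0.32 for TUBA1B and from −0.19 to 0.23 for TUBB. That of TUBA1A, 0.07 to 1.62, was wide.

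**Figure D4:**
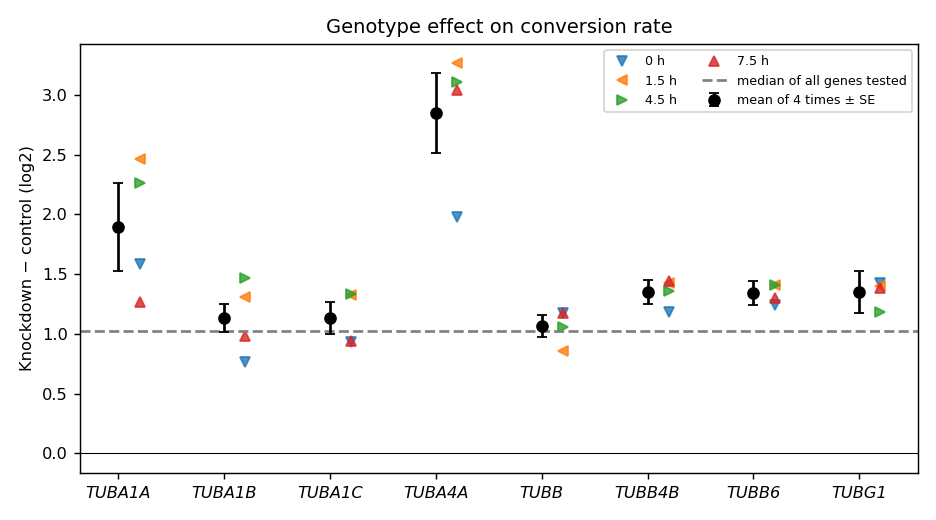
Knockdown minus control on the log2 scale (vertical axis) for the 8 tested tubulins. Black points are the effect over 4 times with bars of 1 SE, coloured triangles the effect at each time, and the dashed line the median of all genes tested, 1.02; TUBA4A at 2.85 lies highest and TUBB at 1.07 lowest.

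At single times 7 of 8 members were higher at 0 h (35.6% of all genes tested), 8 after 1.5 h (38.9%), 8 after 4.5 h (38.3%) and 7 after 7.5 h (33.5%). TUBA1A was the exception at 0 h (1.58, SE 0.756, limma adjusted p = 0.122) and at 7.5 h (1.27, SE 0.756, adjusted p = 0.217). The count at 0 h dropped to 4 without control 0 h replicate 2 or without either knockdown library of that time. After centring 0 of 8 passed with limma at any single time, where 0, 1, 1 and 2 had an unadjusted p under 0.05 from the first time to the last. Of all genes tested, in order of time, 0.548%, 0.511%, 0.727% and 1.1% passed.

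The slopes themselves did not differ detectably between genotypes. With limma 0 of 8 members, and 0 of all genes tested (0%), passed for the slope difference; 0 members and 1269 of all genes tested had an unadjusted p under 0.05. For TUBB6 the knockdown slope minus the control slope was 0.0036 log2 per hour, with a 95% interval from −0.08 to 0.08. For TUBB it was 0.014 (−0.06 to 0.09), for TUBA1B 0.021 (−0.07 to 0.11) and for TUBB4B 0.025 (−0.07 to 0.12). Those of TUBA1A (−0.40 to 0.27), TUBA4A (−0.14 to 0.33) and TUBG1 (−0.23 to 0.21) were wider, so differences as large as the TUBB6 slope lay within those of TUBA1A, TUBA4A and TUBG1 in at least one direction. Genotype differences of the changes from 0 to 1.5 h and from 1.5 to 7.5 h, added after seeing the data, also passed with limma for 0 of 8 members (0 with an unadjusted p under 0.05), against 0.00616% of all genes tested for each.

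TUBB2A (ENSG00000137267), a β-tubulin abundant in brain, lies on chromosome 6 from 3153669 to 3157526 on the minus strand and was not tested. In control it was listed at 0 in 7 of 8 libraries, with 1.30% in replicate 2 at 0 h. In knockdown it was listed at 0 in both 0 h libraries and had 0.987% and 1.69% after 1.5 h, 1.35% and 0.806% after 4.5 h, and 1.56% and 1.29% after 7.5 h.

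Among genes of at least the median CPM of 9.66 with no rate of 0, the 5 whose centred log2 rates followed TUBB most closely over the 16 libraries were NDUFB2, RPL15P3, PTTG3P, CDKN3 and HMGN2, with Pearson r from 0.974 to 0.980. For TUBA1B they were NDUFB4, MKKS, ATP5PD, UQCRHL and THYN1, with r from 0.960 to 0.966. NDUFB2 and NDUFB4 encode subunits of respiratory complex I and ATP5PD one of ATP synthase. TUBB and TUBA1B correlated with each other at 0.868, which ranked TUBB only 773 for TUBA1B and TUBA1B only 917 for TUBB. Many other genes thus followed each of them more closely. TUBB6 correlated with TUBB at −0.47 and with TUBA1B at −0.42. All 7787 genes compared share the libraries and their depth, so these values are descriptions only.

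Genes that act on tubulin were taken from lists that were chosen with earlier results of these data known. The counts below are thus descriptions, and no list was tested as a set. The slope difference passed for 0 genes of any list and for 0% of all genes tested. The folding list holds prefoldin, the CCT chaperonin and the tubulin cofactors, which fold α- and β-tubulin and join them into dimers. In centred slopes 14 of its 20 tested genes rose and 0 fell in control, against 17.6% and 9.46% of all genes tested. In knockdown 15 rose and 1 fell, against 17.7% and 8.62%. The median centred slopes were 0.15 and 0.16 log2 per hour, beside 0.026 and 0.021 over all genes tested. PFDN5, a prefoldin subunit, had centred slopes of 0.16 and 0.21, CCT3, a chaperonin subunit, 0.17 and 0.12, and PFDN2 0.088 and 0.091. Before centring 2 rose and 2 fell in control, against 3.45% and 34.4% of all genes tested. In knockdown 4 rose and 5 fell before centring, against 4.06% and 37.9%. For genotype 19 of the 20 were higher, where 69.6% of all genes tested were, PFDN2 by 1.22 (SE 0.05) and PFDN5 by 0.67 (SE 0.0642). When centred PFDN5 was lower (−0.38, limma adjusted p = 0.00273) and 0 were higher, against 4.59% and 1.45% of all genes tested.

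The 10 genes of the decay pathway for tubulin mRNA, TTC5, SCAPER and CCR4-NOT subunits, held 5 that fell and 0 that rose in each genotype. Over all genes tested 34.4% fell and 3.45% rose in control, and 37.9% and 4.06% in knockdown. The medians were −0.098 and −0.090, beside −0.11 and −0.13 over all genes tested. Centred, 3 fell in control and 2 in knockdown, against 9.46% and 8.62% of all genes tested. In each genotype 0 rose when centred, against 17.6% and 17.7%. The centred medians were 0.038 and 0.060, beside 0.026 and 0.021 over all genes tested. CNOT2, a scaffold subunit, had slopes of −0.28 and −0.29 (limma adjusted p = 3.46e-05 and 2.09e-05), CNOT1, the main scaffold, −0.13 and −0.18, and CNOT9 −0.14 and −0.10. Centred, CNOT2 remained lower in both (−0.15 and −0.14), while CNOT1 (0.0079 and −0.032) and CNOT9 (−0.0030 and 0.047) did not pass. CNOT7, a deadenylase subunit, had −0.034 and −0.076 and did not pass. For genotype 8 of the 10 were higher, where 69.6% of all genes tested were, CNOT1 by 1.28 and CNOT9 by 1.06. When centred 0 passed, against 1.45% higher and 4.59% lower over all genes tested.

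Of 16 tested genes of tubulin modification 7 fell in control, 10 fell in knockdown and 0 rose. Over all genes tested 34.4% and 37.9% fell, and 3.45% and 4.06% rose. Centred, 2 rose and 2 fell in control, against 17.6% and 9.46% of all genes tested. In centred knockdown slopes 1 rose and 2 fell, against 17.7% and 8.62%. TTLL5, a glutamylase, had a control slope of −0.24 (SE 0.0388, limma adjusted p = 1.51e-04), which was −0.11 when centred (adjusted p = 0.0439). For genotype 10 of the 16 were higher, where 69.6% of all genes tested were, among them NAA50 by 1.07, SVBP by 1.00 and AGBL5 by 0.56. Centred, 0 of the 16 passed, against 1.45% higher and 4.59% lower over all genes tested, and AGBL5 was at −0.49 (limma adjusted p = 0.136). Of 12 genes of the γ-tubulin ring complex and its anchors 3 fell and 0 rose in each genotype, with medians of −0.11 and −0.10. Over all genes tested 34.4% and 37.9% fell, and 3.45% and 4.06% rose. Centred, 0 fell and 1 rose in each, against 9.46% and 17.6% of all genes tested in control and 8.62% and 17.7% in knockdown. AKAP9, an anchoring protein, had a control slope of −0.13 (SE 0.0269, adjusted p = 0.00164), which was 0.0099 when centred (adjusted p = 0.820). Of the 12, 11 were higher in knockdown, where 69.6% of all genes tested were. For genotype 0 of the 12 passed when centred, against 1.45% higher and 4.59% lower over all genes tested.

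Of 22 genes of microtubule dynamics 11 fell and 1 rose in control, and 14 fell and 1 rose in knockdown. Over all genes tested 34.4% and 37.9% fell, and 3.45% and 4.06% rose. Centred, 4 rose and 4 fell in control, against 17.6% and 9.46% of all genes tested. In centred knockdown slopes 2 rose and 3 fell, against 17.7% and 8.62%. STMN1, stathmin, which binds free tubulin dimers, rose in control at 0.099 log2 per hour (SE 0.0256, limma adjusted p = 0.0061) and in knockdown at 0.12 (SE 0.0256, adjusted p = 0.00123). CLASP2, a plus-end protein, had a control slope of −0.25 (SE 0.0293) and DYNC1H1, the dynein heavy chain, one of −0.18 (SE 0.0372), and both passed. Centred, CLASP2 passed at −0.11 (adjusted p = 0.00579) and DYNC1H1 did not, at −0.042 (adjusted p = 0.462). In knockdown 20 of the 22 were higher, where 69.6% of all genes tested were. STMN1 was 1.20 higher (SE 0.0998), beside a median of 1.02 over all genes tested, and 0.16 when centred (limma adjusted p = 0.449). Centred, 0 were higher and DCTN1, a dynactin subunit, was lower (−0.76, adjusted p = 0.0298), against 1.45% and 4.59% of all genes tested. Of 13 other tubulin genes 5 reached 1 CPM. The δ-tubulin TUBD1 (0.78, adjusted p = 0.00215) and the ε-tubulin TUBE1 (0.82, adjusted p = 0.0202) were higher in knockdown, where 69.6% of all genes tested were and the median was 1.02. Centred they were at −0.26 (limma adjusted p = 0.489) and −0.23 (adjusted p = 0.724). Of the 5, 0 had a slope past the threshold in either genotype, centred or not. Over all genes tested 3.45% rose and 34.4% fell in control, and 4.06% and 37.9% in knockdown. Centred, 17.6% rose and 9.46% fell in control, and 17.7% and 8.62% in knockdown.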

How the data were processed

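The deposited table gave 1 value per gene for each of 16 libraries, a fraction from 0 to 1 that the authors left unnamed in the file headers; it is taken here to be the T-to-C conversion rate. The deposited table also held 1 CPM column, used to filter genes and for the variance trend, and gene lengths, deposited by the authors and not used. The tools named are CASAVA and HISAT2 2.1.0, with hg38 as the build, per the submitters' processing notes. Neither the conversion caller nor the annotation is given in the sources used here. Rates in percent plus 0.05 were put on the log2 scale and fitted by linear models (R 4.3.3, limma 3.58.1). The variance trend followed log2(CPM + 0.01), and p-values were adjusted by Benjamini-Hochberg at 0.05 over 16241 genes with at least 1 CPM and a rate above 0 in any library. Fold changes are on that scale and understate changes of low rates. The genotype effect had time as a factor, slopes were fitted per genotype, and effects at single times used 8 group means. The tests were checked on simulated data. Members, lists and tests were chosen with earlier results of these data known. Named genes were all 9 members and, per list, up to 4 with the highest CPM; for a symbol in 2 rows the row with the higher CPM was taken. No 2 replicates held the same values: at most 0.0228% of rates above 0 were identical between replicates. Alternatives covered the constant, the CPM minimum, the variance trend, a replicate block, centring, the 0 h libraries and each library.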

Additional observations from a re-analysis of the deposited data

How the results depend on the processing

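Centring each library changed most calls: 1 of 8 tubulins was then called for genotype in place of 8, 0 at each of 0, 1.5, 4.5 and 7.5 h in place of 7, 8, 8 and 7, 4 for the control slope in place of 2 and 5 for the knockdown slope in place of 2. It turned the slopes of TUBB4B (0.048 and 0.088), TUBA1C (0.11 and 0.12) and, in control, TUBA4A (0.13) to positive. Requiring 20 CPM left 5 tubulins, of which 5 were called for genotype over all times, at 1.5 h and at 4.5 h, and 0 after centring, where TUBB turned to −0.0055. With a constant of 0.2, 1 control slope was called and 2 centred genotype effects, TUBA1B and TUBB turned to −0.034 and −0.046 in the latter, and the TUBA4A control slope to 0.0061. With no CPM minimum 1 control slope, 1 control change from 1.5 to 7.5 h, 3 centred knockdown slopes and 2 centred genotype effects were called. The centred effects of TUBB6 (−0.39), TUBA1B (−0.61), TUBB (−0.67), TUBB4B (−0.39), TUBA1C (−0.61) and TUBG1 (−0.39) turned negative and the centred TUBB6 control slope positive (0.067), with 37510 genes then in each median. Without the variance trend 1 control slope and 1 control change from 1.5 to 7.5 h were called. Without the 0 h libraries slopes turned for TUBG1 (−0.0019 and −0.0038), TUBA4A in control (0.051) and TUBA1A in knockdown (−0.071). Centring on genes of at least 50 CPM turned the centred TUBB4B control slope to −0.0078.

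Leaving out 1 library gave 1 to 3 called slopes in control, 1 to 2 in knockdown, 3 to 6 centred slopes in knockdown, 1 to 2 centred genotype effects, 4 to 7 effects at 0 h, 1 to 2 changes from 1.5 to 7.5 h in control and 1 to 3 in knockdown. Control slopes ranged from −0.055 to 0.0087 for TUBA1C and from −0.11 to 0.075 for TUBA4A, the knockdown slope of TUBA1A from −0.037 to 0.050 and the centred effect of TUBB from −0.043 to 0.061. Same-numbered libraries did not deviate together (r from −0.024 to 0.040 over 28 pairs of groups), so numbers were not taken as pairs. With a replicate block TUBB in control (0.065, adjusted p = 0.0475) and the centred TUBB4B knockdown slope (0.088, adjusted p = 0.0483) passed; no tubulin call was lost and the counts of calls moved by at most 1.5 times.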
